A study of Homo sapiens with 6 samples.

Results

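The 10 genes described here are ATF4, ATF5, DDIT3, TRIB3, SESN2, PHGDH, PSAT1, CTH, ASNS and CHAC1, which belong to the amino acid and stress response driven by the transcription factor ATF4. They were chosen by gene symbol, with their changes after EA1 knockdown already known from earlier results of these data, so their differences between control and knockdown are given as a description. All 10 were among the 18118 genes of the counts table, and 8 passed the filter on low counts, as did 14571 genes in all. RNA-seq had been made from 6 libraries of SU-CCS-1, a line of human clear cell sarcoma cells with the gene fusion EWSR1::ATF1 (EA1). Of these, 2 came from cells transfected with a negative control siRNA, 2 from cells with EA1 siRNA 1 and 2 from cells with EA1 siRNA 2. The comparison asks how gene expression depends on EA1. All 6 libraries come from 1 cell line in culture at a single time point of a transient knockdown, and nothing in the labels says that libraries of a group were separate cultures, so that the tests measure the spread between these libraries, which may be technical.

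Cells under amino acid shortage, unfolded protein load, heme shortage or viral RNA activate kinases that phosphorylate the translation factor eIF2α. General translation then slows while translation of the ATF4 mRNA increases, and much of the control of ATF4 is therefore not visible in its mRNA. ATF4 binds DNA with C/EBP proteins and induces genes for amino acid synthesis, uptake and tRNA charging, and genes that limit or end the response. EA1 joins the start of EWSR1 to the DNA-binding part of ATF1, a CREB family factor whose usual site is the cAMP response element (CRE, TGACGTCA), a motif related to that of ATF4.

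Promoter sequences of all 10 genes were found in RefSeq (GRCh38.p14), each covering 250 bases before to 50 bases after a start site. They are shown for the genes with the largest decrease (CTH) and the largest increase (PSAT1) among the 8, and for the only 2 genes whose window held the C/EBP-ATF response element core TGATGNAA. Both strands were searched. For CTH the stretch is chr1:70411018-70411217, plus strand, positions -250 to -51 from the start, and for PSAT1 it is chr9:78296875-78297124, plus strand, positions -250 to -1. For ASNS it is chr7:97872458-97872487, minus strand, positions -79 to -50, and for CHAC1 it is chr15:40953251-40953280, plus strand, positions -220 to -191. Capitals mark TGACG and CCAAT in CTH, CCAAT in PSAT1, and the response element core in ASNS and, as its reverse complement, in CHAC1.
CTH: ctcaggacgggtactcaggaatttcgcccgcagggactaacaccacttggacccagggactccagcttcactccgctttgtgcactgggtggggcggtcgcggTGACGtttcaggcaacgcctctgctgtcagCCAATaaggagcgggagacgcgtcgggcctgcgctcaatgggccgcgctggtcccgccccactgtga
PSAT1: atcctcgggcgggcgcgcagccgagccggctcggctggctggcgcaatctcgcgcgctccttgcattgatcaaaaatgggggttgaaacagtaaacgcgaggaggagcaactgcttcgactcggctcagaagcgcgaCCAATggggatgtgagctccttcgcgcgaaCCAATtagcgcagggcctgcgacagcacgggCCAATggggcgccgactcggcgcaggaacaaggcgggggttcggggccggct
ASNS: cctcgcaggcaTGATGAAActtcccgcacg
CHAC1: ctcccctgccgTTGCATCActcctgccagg

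The response element core was in 2 of the 10 genes and in 4.46% of 27305 genes with a RefSeq promoter. The whole CRE was in none of the 10 windows and in 2.25% of genes. Its shortened form TGACG, which also lies within the whole CRE, was in 4 of the 10 (ATF4, ATF5, ASNS and CTH) and in 28.4% of genes. The AP-1 motif TGAGTCA was in ATF5 and DDIT3, against 6.05% of genes, and CCAAT, the box bound by NF-Y, was in 6 of the 10, against 39.7% of genes. A match of letters is a description of the window, and these windows leave out sites farther from the start.

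The libraries held between 5942808 and 7599305 counts, so that the 3 counts taken as a floor correspond to between 0.386 and 0.534 normalized CPM (CPM, a gene's share of the TMM-scaled library total). Replicates of a group had correlations across genes of 0.977 to 0.983 on the log2 CPM scale. ATF1, whose 3′ part is in the fusion mRNA, stood at 82.2 and 87.4 normalized CPM in control, 21.2 and 20.3 with siRNA 1, and 21.7 and 22.3 with siRNA 2. Counts per gene do not separate native ATF1 from EA1. EWSR1 was not called with either siRNA. Of 9 markers of clear cell sarcoma and melanocytic identity, 8 rose with siRNA 1 (19.9% of all genes tested). With siRNA 2, 7 rose (18.5% of all genes), and SOX10 was not called with either siRNA. The summed level of the 9 markers was 3305 and 3170 normalized CPM in control and between 8258 and 12500 after knockdown. PMEL alone held 1397 and 1043 normalized CPM in control and between 4241 and 7768 after knockdown. Of 9 markers of other cell types, 1 (CD68) was in the counts table, at 0 to 6 counts. In bulk RNA, a change in the state of all cells and a change in the share of some cells cannot be told apart.

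Below, log2FC is the fitted log2 fold change of knockdown minus control with its standard error, and a gene is called when its Benjamini-Hochberg adjusted p over all 14571 genes is under 0.05 in edgeR's quasi-likelihood test. With siRNA 1, PSAT1 was called higher (1 of 8, with 19.9% of all genes tested called higher) and ATF4, TRIB3 and CTH lower (3 of 8, with 20.3% of all genes called lower). With siRNA 2, PSAT1 and PHGDH were called higher (2 of 8, 18.5% of all genes) and ATF5, TRIB3 and CTH lower (3 of 8, 18.2% of all genes). In the average of both siRNAs, PSAT1 was called higher (1 of 8, 21.5% of all genes) and ATF4, ATF5, TRIB3 and CTH lower (4 of 8, 22.1% of all genes). With each siRNA singly, 1 of the 8 genes was higher (14.8% of all genes) and 2 were lower (15.1% of all genes). Nothing is read from these shares, since the genes were chosen with the contrast known. The median log2FC of the 8 genes was -0.10 with siRNA 1 and -0.15 with siRNA 2, beside 0.02 and 0.00 over all genes tested.

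**Figure D1:**
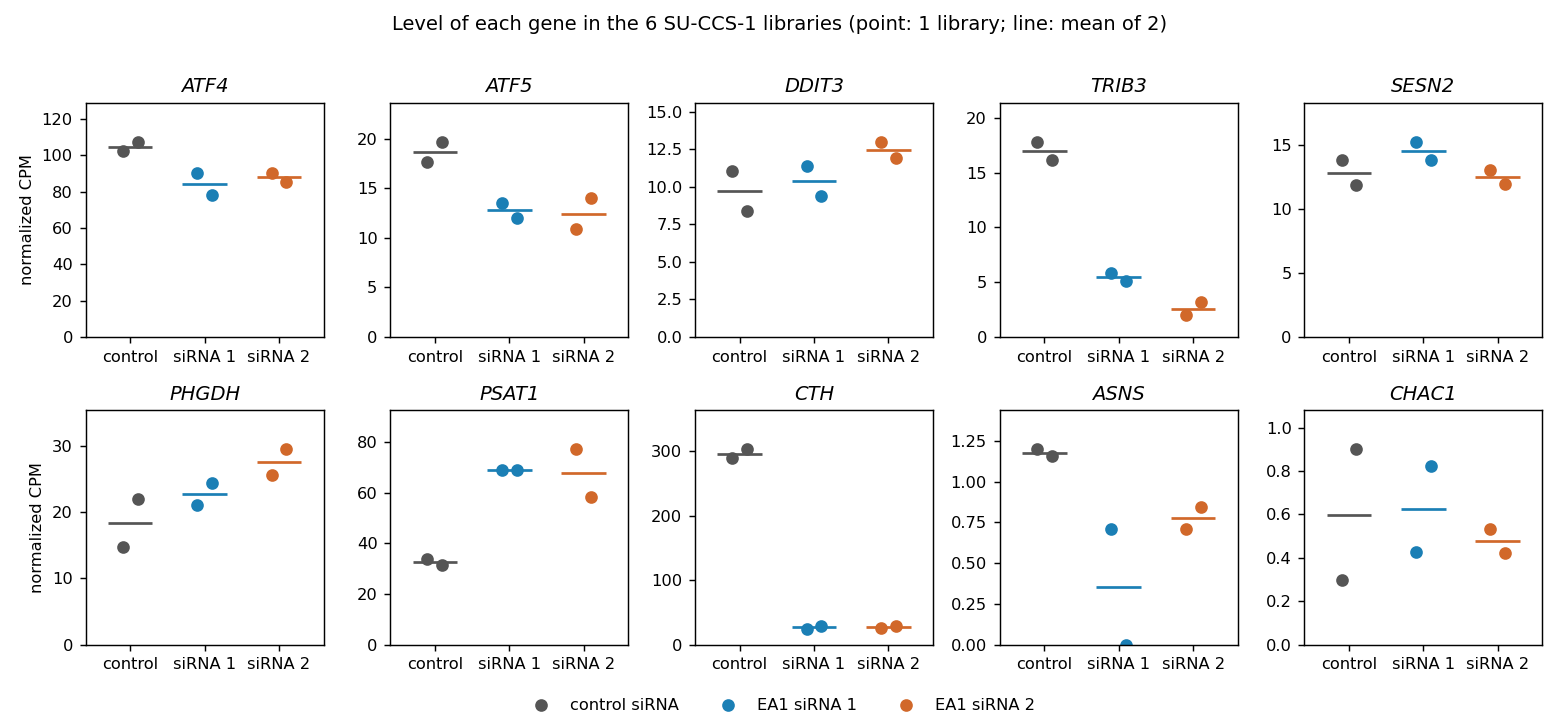
Level of each of the 10 genes as normalized CPM (vertical axis, from 0, with its own scale per gene) in control, EA1 siRNA 1 and EA1 siRNA 2; each point is 1 library and each line the mean of 2 libraries. CTH, TRIB3, ATF4, ATF5 and, at few counts, ASNS lie lower in every knockdown library than in either control library, and PSAT1 lies higher. ASNS and CHAC1 lie at or below 1.2 normalized CPM throughout.

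CTH (cystathionine gamma-lyase, the last enzyme of transsulfuration, which releases cysteine from cystathionine) had the largest difference of the 8 genes. The gene (ENSG00000116761) lies at chr1:70411218-70439851 on the plus strand of hg38. Its level was 289 and 303 normalized CPM in the control libraries, 24.7 and 28.8 with siRNA 1, and 26 and 28.5 with siRNA 2. Both control libraries stood far above all 4 knockdown libraries, which lay close together. The log2FC was -3.47 ± 0.12 (SE; 95% interval -3.73 to -3.21) with siRNA 1 and -3.44 ± 0.12 (-3.70 to -3.17) with siRNA 2, an 11.1-fold and 10.8-fold lower level. Among all 14571 genes CTH ranked 101 and 105 by decrease. The call held under all 12 alternative settings with each siRNA, at log2FC between -3.60 and -3.36 with siRNA 1.

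TRIB3 (a pseudokinase that is induced by ATF4 and DDIT3 and in turn restrains ATF4) was the other gene lower with each siRNA. It is ENSG00000101255, at chr20:362835-397559 on the plus strand. The control libraries held 17.8 and 16.2 normalized CPM, the siRNA 1 libraries 5.83 and 5.11, and the siRNA 2 libraries 1.96 and 3.23. The 3 groups were separate, with siRNA 2 the lowest, where the level rested on 11 and 23 counts. The log2FC was -1.63 ± 0.27 with siRNA 1 and -2.68 ± 0.30 with siRNA 2, a 3.09-fold and 6.39-fold lower level. The difference between the siRNAs was 1.05 ± 0.33 (95% interval 0.32 to 1.77, siRNA 1 minus siRNA 2) and was not called over all genes.

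PSAT1 (phosphoserine aminotransferase, the second enzyme of serine synthesis from glycolysis) moved the other way. It is ENSG00000135069, at chr9:78297125-78330093 on the plus strand. Its level was 34 and 31.4 normalized CPM in control, 68.8 in both libraries of siRNA 1, and 77.1 and 58.1 with siRNA 2. All knockdown libraries were above both controls, and the siRNA 2 libraries differed from each other more than those of the other groups. The log2FC was 1.08 ± 0.14 with siRNA 1 and 1.04 ± 0.15 with siRNA 2, a 2.11-fold and 2.06-fold higher level. By increase it ranked 1390 and 1297 of all genes tested. The calls of PSAT1 and of TRIB3 held under all 12 alternative settings with each siRNA.

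PHGDH (phosphoglycerate dehydrogenase, which makes the first step of the same pathway) had smaller differences. It is ENSG00000092621, at chr1:119648411-119744218 on the plus strand. Its level was 14.7 and 22 normalized CPM in control, 21 and 24.4 with siRNA 1, and 25.6 and 29.5 with siRNA 2. The higher control library lay above the lower siRNA 1 library, while both siRNA 2 libraries lay above control. The log2FC was 0.30 ± 0.21 (95% interval -0.16 to 0.76) with siRNA 1, not called, and 0.58 ± 0.21 (0.13 to 1.04) with siRNA 2. The siRNA 2 call was lost without control replicate 1 (0.33), siRNA 1 replicate 1 (0.59), siRNA 1 replicate 2 (0.56) or siRNA 2 replicate 2 (0.44). The averaged log2FC of 0.44 became called without control replicate 2 (0.74) or siRNA 2 replicate 1 (0.47).

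ATF4 itself (ENSG00000128272, chr22:39519695-39522683, plus strand) was modestly lower in mRNA after knockdown. It stood at 102 and 107 normalized CPM in control, 90 and 78.4 with siRNA 1, and 90.4 and 85.4 with siRNA 2. The 4 knockdown libraries were below both controls and overlapped with each other. The log2FC was -0.31 ± 0.11 (95% interval -0.55 to -0.08) with siRNA 1, called, and -0.26 ± 0.11 (-0.49 to -0.02) with siRNA 2, not called. The siRNA 1 call was lost in DESeq2 and without control replicate 1 (-0.35), control replicate 2 (-0.31) or siRNA 1 replicate 2 (-0.24). The averaged log2FC of -0.28 was no longer called without control replicate 1 (-0.32), control replicate 2 (-0.28) or siRNA 1 replicate 2 (-0.26). ATF4 protein was not analysed here.

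ATF5 (a related bZIP factor, likewise under translational control, with a role in the mitochondrial stress response) was lower to a like extent with both siRNAs. The gene (ENSG00000169136) lies at chr19:49928702-49933935 on the plus strand. It stood at 17.7 and 19.7 normalized CPM in control, 13.5 and 12 with siRNA 1, and 10.9 and 14 with siRNA 2, so that no knockdown library reached a control library. The log2FC was -0.55 ± 0.21 with siRNA 1, not called, and -0.58 ± 0.21 with siRNA 2, called. The siRNA 2 call was lost without either control replicate (-0.65 and -0.53), without either siRNA 1 replicate (-0.58 and -0.60) and without siRNA 2 replicate 1 (-0.43). The siRNA 1 value became called without siRNA 2 replicate 1 or 2 (both -0.57), and the averaged call (-0.56) was lost without control replicate 1 (-0.64), control replicate 2 (-0.51) or siRNA 1 replicate 2 (-0.54). Exons of ATF5 share 565 bases (19.5% of its exon length) with NUP62, a nuclear pore gene on the opposite strand, and the library kit keeps strand but the counting setting is not given in the sources used here. NUP62, named after its values were seen, fell by 0.92 and 0.95 on the log2 scale, and its part in the ATF5 values was not tested.

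DDIT3 (CHOP, the factor of the response linked to cell death) was not called with either siRNA. It is ENSG00000175197, at chr12:57516588-57521737 on the minus strand. Its level was 11.1 and 8.36 normalized CPM in control, 11.4 and 9.39 with siRNA 1, and 13 and 11.9 with siRNA 2. Control and siRNA 1 overlapped, and both siRNA 2 libraries lay above them. The log2FC was 0.10 ± 0.24 (95% interval -0.43 to 0.64) and 0.36 ± 0.24 (-0.17 to 0.89), so that the intervals include changes of more than 0.5 upwards. Exons of DDIT3 share 31.6% of their length with MARS1 and MBD6 on the opposite strand, neither of which was called. On the same strand they share 105 bases (8.0%) with ENSG00000285133, which was not in the counts table. The part of these overlaps in the DDIT3 values was not tested.

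SESN2 (sestrin 2, a leucine sensor that restrains mTORC1) had near equal levels in all 3 groups. It is ENSG00000130766, at chr1:28259518-28282491 on the plus strand. Its level was 13.8 and 11.8 normalized CPM in control, 15.2 and 13.8 with siRNA 1, and 13 and 11.9 with siRNA 2. The higher control library and the lower siRNA 1 library were both at 13.8, and both siRNA 2 libraries lay within the control range. The log2FC was 0.19 ± 0.20 (95% interval -0.26 to 0.63) and -0.04 ± 0.21 (-0.49 to 0.42), and neither was called.

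ASNS (asparagine synthetase) and CHAC1 (which degrades glutathione), both classic targets of ATF4, were close to undetected in every library and were not tested. ASNS (ENSG00000070669, chr7:97851677-97872542, minus strand) had 8 and 9 counts in control, 5 and 0 with siRNA 1, and 4 and 6 with siRNA 2. The library at 0 allows a level of up to 0.494 normalized CPM. CHAC1 (ENSG00000128965, chr15:40952962-40956512, plus strand) had 2 and 7 counts in control, 3 and 5 with siRNA 1, and 3 and 3 with siRNA 2. Both ASNS control libraries lay above every knockdown library, but at counts too few to pass the filter. No difference between the groups was tested for either gene. Of the exon length of ASNS, 2415 bases (49.3%) are shared on the same strand with the long noncoding gene ENSG00000284707. That gene held 4 to 10 counts per library. How reads over shared exons were assigned is not given in the sources used here, and the part of the overlap in the low ASNS counts was not tested.

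**Figure D2:**
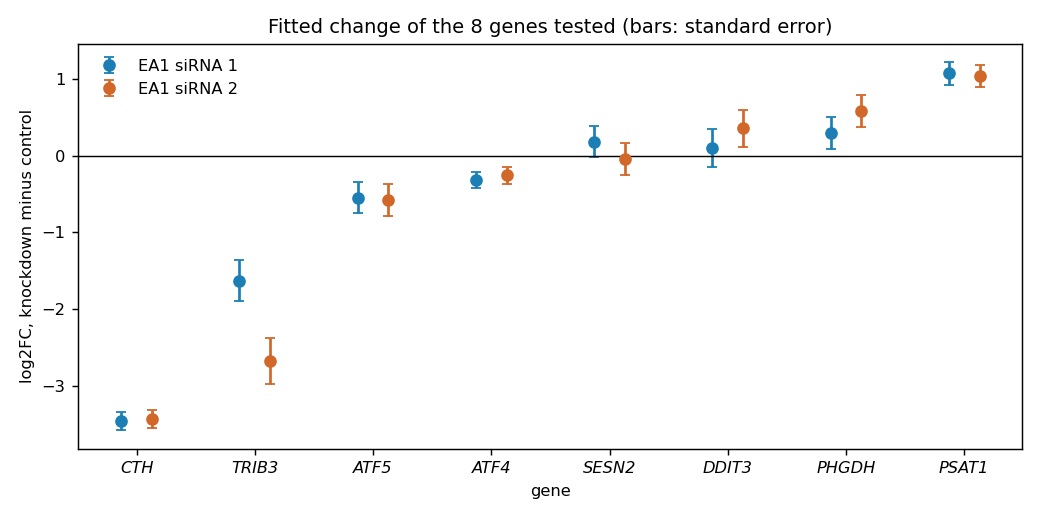
Fitted log2FC, knockdown minus control (vertical axis), of the 8 genes tested, ordered by their averaged value; points are EA1 siRNA 1 and EA1 siRNA 2, bars are standard errors, and the line is 0. CTH and TRIB3 lie lowest, PSAT1 highest, and TRIB3 shows the widest gap between the siRNAs.

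Levels per kilobase were taken over all annotated exons of a gene joined together, which may be longer than the transcript expressed. That length was 9187 bases for PHGDH and 4896 for ASNS, beside 1307 for DDIT3, so the order between genes is rough. In control the order of mean levels began with CTH (122 normalized CPM per kb), ATF4 (40.1), PSAT1 (14.8), DDIT3 (7.43) and ATF5 (6.45). TRIB3 (5.17), SESN2 (3.7), PHGDH (1.99), CHAC1 (0.292) and ASNS (0.24) followed. The libraries of DDIT3 and ATF5 overlapped, as did those of CHAC1 and ASNS, and the other neighbours did not. After siRNA 1, CTH was at 11.1 and PSAT1 at 31.2 normalized CPM per kb, the latter within the range of ATF4 (mean 32.2). After siRNA 2, CTH was at 11.3 and PSAT1 at 30.6 normalized CPM per kb, again overlapping ATF4 (33.6). CTH thus went from the level percentile 98.7 of all genes tested in control to 73 and 73.2, TRIB3 from 50.6 to 24.5 and 13.6, and PSAT1 from 79.1 to 92.3 and 91.6. ATF4 stayed between percentiles 92.6 and 94.2.

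None of the 8 genes was called between the 2 EA1 siRNAs, where 2.24% of all genes tested were called in either direction. The smallest differences (siRNA 1 minus siRNA 2) were those of ATF5, at 0.03 with a 95% interval of -0.44 to 0.50, of PSAT1, at 0.03 (-0.27 to 0.34), and of CTH, at -0.03 (-0.32 to 0.25). For ATF4 the difference was -0.06 (-0.30 to 0.18). For DDIT3 it was -0.26 (-0.79 to 0.27), for PHGDH -0.28 (-0.73 to 0.16) and for SESN2 0.22 (-0.23 to 0.68). The interval of TRIB3 alone left out 0. Both siRNAs were compared with the same control libraries.

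Of 7 listed relatives of the 10 genes, all tested, 3 rose with each siRNA (TRIB1, TRIB2 and SESN3) and 1 fell (CEBPB, described below). Over all genes tested, 14.8% rose and 15.1% fell with each siRNA. This list and those below were chosen with earlier results of these data known, so nothing is read from their shares. TRIB1, a pseudokinase that brings C/EBP proteins to degradation, rose with each siRNA, from 63.2 and 58.6 normalized CPM in control to 472 and 454 with siRNA 1 and 490 and 325 with siRNA 2. Its log2FC was 2.93 ± 0.17 and 2.74 ± 0.17, opposite in sign to TRIB3. TRIB2 rose by 1.75 ± 0.11 and 1.82 ± 0.11. SESN3, a sestrin induced by FOXO factors, rose from 38.5 and 28.8 normalized CPM to 302 in both libraries of siRNA 1 and to 115 and 156 with siRNA 2. Its log2FC of 3.17 ± 0.17 and 2.02 ± 0.17 differed between the siRNAs by 1.15 ± 0.15 (adjusted p = 0.0044 by Benjamini-Hochberg, quasi-likelihood test of edgeR). SESN1, a p53 target, fell with siRNA 1 (-0.56 ± 0.16) and was at -0.09 ± 0.15 with siRNA 2, not called. The difference of SESN1 between the siRNAs was not called. CHAC2, the relative of CHAC1, was at -0.98 ± 0.50 and -1.03 ± 0.50, not called.

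**Figure D3:**
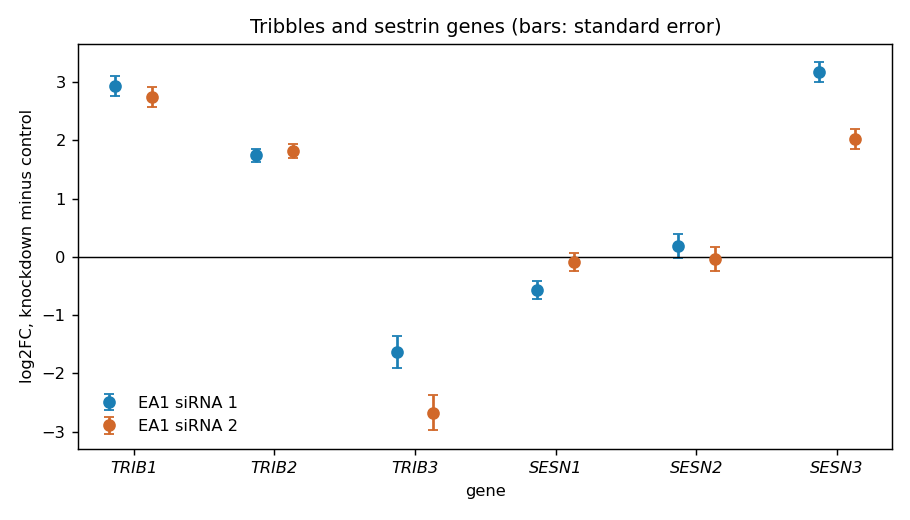
Fitted log2FC, knockdown minus control (vertical axis), of the tribbles genes TRIB1 to TRIB3 and the sestrin genes SESN1 to SESN3; points are EA1 siRNA 1 and EA1 siRNA 2 and bars are standard errors. TRIB1, TRIB2 and SESN3 lie above 0 with both siRNAs, TRIB3 lies below, and SESN2 lies near 0.

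Upstream of ATF4, 17 genes for eIF2α kinases, eIF2 and eIF2B subunits, phosphatase subunits and their regulators were tested. With each siRNA 2 of them rose (OMA1 and DELE1) and 4 fell, counts close to those given by the shares of all genes called (14.8% higher and 15.1% lower with each siRNA), and the medians were -0.21 and -0.11. In this and the following lists, genes beyond the relatives, branch enzymes, kinases and partners of the 10 genes and the 3 largest changes per list were named after their values were seen. EIF2AK3 (PERK, the kinase of the endoplasmic reticulum) fell from 110 and 107 normalized CPM to between 42.3 and 51.1, a log2FC of -1.29 ± 0.11 and -1.14 ± 0.11. EIF2AK2 (PKR, the kinase sensing double-stranded RNA) fell by 0.76 and 0.72 on the log2 scale. EIF2AK1 (0.00 and -0.08) and EIF2AK4 (GCN2, the amino acid sensor, -0.21 and -0.07) were not called. OMA1, the protease that relays mitochondrial stress, rose by 0.95 ± 0.15 and 0.97 ± 0.15, and DELE1, its substrate that carries the signal to the kinase EIF2AK1, by 0.63 and 0.61. EIF2S1, the gene of eIF2α itself, fell by 0.80 and 0.52, and the phosphatase subunit PPP1R15B by 0.46 and 0.29. PPP1R15A, the ATF4 target that reverses eIF2α phosphorylation, fell with siRNA 2 (-0.88 ± 0.21) and was at -0.33 with siRNA 1, not called. Its difference between the siRNAs was not called.

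Of 8 bZIP partners and neighbours tested, 1 rose and 2 fell with each siRNA (14.8% and 15.1% of all genes), with medians of -0.27 and -0.71. CEBPB, a stress-induced partner of ATF4, fell (-1.43 ± 0.22 and -0.92 ± 0.21), as did NFE2L2, the regulator of the antioxidant response (-0.72 ± 0.10 and -0.65 ± 0.10). CEBPD rose (2.21 ± 0.24 and 1.41 ± 0.24). CEBPG (-0.24, not called, and -0.76 ± 0.25) and ATF3 (-0.30, not called, and -1.04 ± 0.27) fell with siRNA 2, and neither was called between the siRNAs.

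Other genes listed as ATF4 targets went both ways. Of 21 tested, 5 rose and 7 fell with each siRNA (14.8% and 15.1% of all genes), with medians of -0.33 for both. BBC3 (PUMA, a death-promoting BCL2 family member) rose by 2.71 ± 0.20 and 2.26 ± 0.20, and VLDLR, a lipoprotein receptor, by 2.66 ± 0.12 and 1.65 ± 0.12. DDIT4, an mTORC1 inhibitor, rose by 1.45 and 1.15, KLHL24 by 1.33 and 1.01, and the collagen receptor DDR2 by 1.28 and 1.10. AKNA fell (-1.26 ± 0.16 and -1.36 ± 0.16), as did the secreted stress factor GDF15 (-1.28 and -1.10), VEGFA (-0.76 and -0.76), TSC22D3 (-0.48 and -1.15), EIF4EBP1 (-0.63 and -0.39), HERPUD1 (-0.53 and -0.52) and CEBPB.

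Of 14 genes of serine, glycine, folate and proline metabolism tested beside PHGDH and PSAT1, 8 fell with both siRNAs (15.1% of all genes). None rose with both (14.8% of all genes), and the medians were -0.66 and -0.59. The list was chosen with earlier results of these data known, so nothing is read from these shares. The exception upwards was ALDH1L2, a mitochondrial folate enzyme, called higher with siRNA 1 (2.18) and not with siRNA 2 (1.56). MTHFD2, the mitochondrial folate enzyme, fell from 69.7 and 75.1 normalized CPM to between 23 and 28.6, a log2FC of -1.53 ± 0.14 and -1.45 ± 0.14. MTHFD1L fell too (-0.81 ± 0.20 and -1.24 ± 0.20), as did the cytosolic enzymes SHMT1 (-1.22 and -0.67) and MTHFD1 (-0.70 and -0.60). GLDC, of the glycine cleavage system, was called lower with each siRNA, with 31 and 98 counts in control, 1 and 2 with siRNA 1 and 0 and 8 with siRNA 2. PSPH, which completes serine synthesis, was at -0.26 and 0.05, not called. SHMT2, which converts serine to glycine in mitochondria, fell with siRNA 1 (-0.42 ± 0.11) and was at -0.17 with siRNA 2, not called. No gene of this list was called between the siRNAs.

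Around CTH, 9 genes of methionine, cysteine and glutathione metabolism were tested, of which 1 rose and 2 fell with each siRNA (14.8% and 15.1% of all genes), with medians of -0.37 and -0.28. CBS, the enzyme before CTH in transsulfuration, was not among the genes of the counts table, so its level could not be analysed. GCLC, the catalytic subunit for the first step of glutathione synthesis, rose (0.60 ± 0.13 and 0.73 ± 0.13). GGCT, of glutathione breakdown, fell (-0.79 ± 0.17 and -0.62 ± 0.17), as did MAT2A, which makes S-adenosylmethionine (-0.37 ± 0.10 and -0.40 ± 0.10). None of the log2FC named was as large as that of CTH.

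Among 13 amino acid transporters tested, 3 rose and 3 fell with each siRNA (14.8% and 15.1% of all genes), with medians of 0.22 and 0.09. SLC7A5, the large neutral amino acid carrier, rose (0.69 ± 0.11 and 0.95 ± 0.11), as did SLC36A1 (1.05 ± 0.15 and 1.04 ± 0.15) and SLC3A2, the partner chain of SLC7A5 (0.35 and 0.56). The glutamine carrier SLC38A1 fell (-1.80 ± 0.22 and -1.98 ± 0.22), with the arginine and lysine carrier SLC7A1 (-0.94 and -0.65) and SLC36A4 (-0.68 and -0.75). Of 21 genes for tRNA charging and export tested (the cytosolic aminoacyl-tRNA synthetases and XPOT), 1 rose and 10 fell with siRNA 1 (19.9% and 20.3% of all genes), and 3 rose and 5 fell with siRNA 2 (18.5% and 18.2%). Of these, 1 rose and 5 fell with both (14.8% and 15.1%), the medians were -0.25 and -0.19, and no gene of the list was called between the siRNAs. WARS1, which is also induced by interferon, rose (0.55 ± 0.16 and 1.02 ± 0.16), and the subunits of the phenylalanine enzyme, FARSB (-1.05 ± 0.17 and -0.75 ± 0.17) and FARSA (-0.77 ± 0.11 and -0.53 ± 0.11), fell. The enzymes for cysteine (CARS1, -0.62 and -0.47), valine (VARS1, -0.50 and -0.43) and lysine (KARS1, -0.39 and -0.37) also fell.

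In the neighbouring branches of the unfolded protein response, 24 genes were tested, of which 3 rose and 4 fell with each siRNA (14.8% and 15.1% of all genes), with medians of -0.05 and 0.15. HSPA5 (BiP), the usual marker of endoplasmic reticulum stress, was at -0.21 and 0.20, not called. ERN1 (IRE1, -1.71 ± 0.13 and -1.67 ± 0.13) and its substrate XBP1 (-0.57 ± 0.12 and -0.47 ± 0.12) fell, while SEL1L (1.30 ± 0.11 and 1.43 ± 0.11) and the chaperones PDIA4 (1.05 ± 0.10 and 1.24 ± 0.10) and CALR (0.60 and 0.92) rose. EDEM1 fell by 0.53 and 0.43, and HERPUD1 was the other gene that fell with each siRNA. Of 11 mitochondrial chaperones and proteases, 5 fell with siRNA 1 and 2 with siRNA 2 (20.3% and 18.2% of all genes). None rose with both siRNAs and 2 fell with both (14.8% and 15.1% of all genes), with medians of -0.25 and -0.12. These were TRAP1 (-1.17 ± 0.10 and -0.998 ± 0.10) and HSPA9 (-0.54 ± 0.10 and -0.33 ± 0.10). Some genes belong to 2 or more of these lists.

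**Figure D4:**
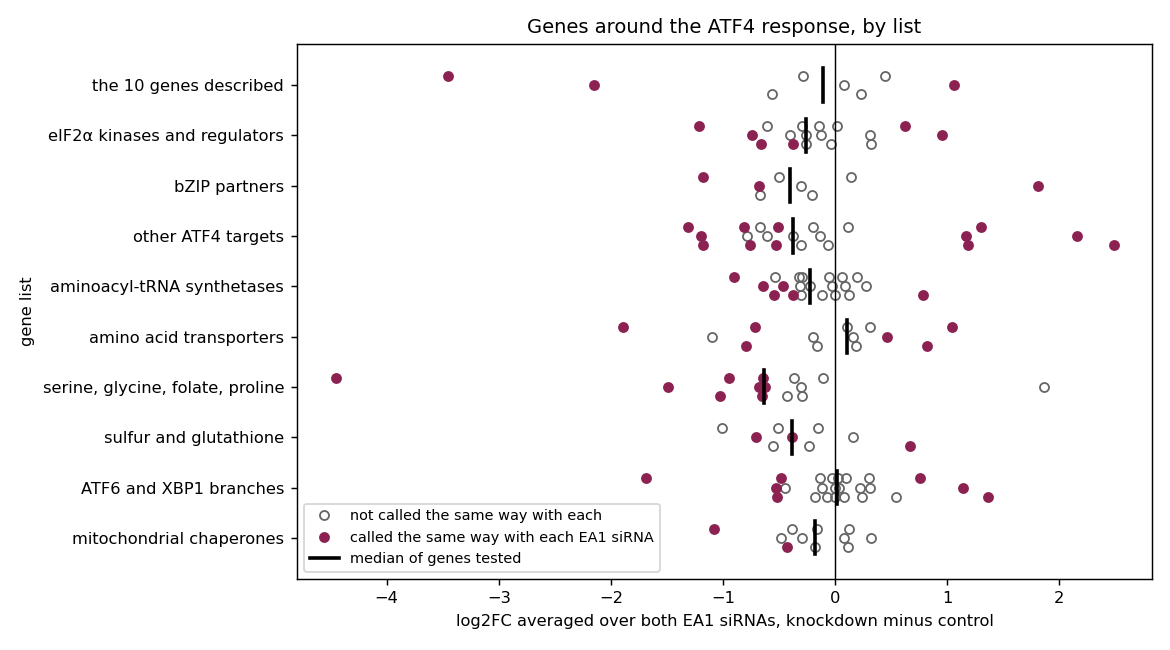
Averaged log2FC over both EA1 siRNAs, knockdown minus control (horizontal axis), of each gene tested in the 10 genes described and in 9 lists around the ATF4 response (rows); filled points were called in the same direction with each siRNA, open points were not, and bars are list medians. The lists were chosen with earlier results of these data known. Most lists hold filled points on both sides of 0. In the serine, glycine, folate and proline list and the mitochondrial list, all filled points lie below 0. The lowest point is GLDC, whose fitted value rests on 0 to 8 counts in the knockdown libraries.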

How the data were processed

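The authors made stranded mRNA libraries, aligned the reads to hg38 (BWA-MEM), obtained gene counts from featureCounts 1.6.3 and deposited these raw counts for each library. The annotation and strand setting of the counting are not given in the sources used here. Each gene held at least 6 counts in some library, and 2589 genes carry no symbol. Groups and replicate numbers came from the sample labels. From the counts, edgeR 4.0.16 (R 4.3.3) with filterByExpr (minimum count 10, total 15), TMM scaling and 3 conditions gave quasi-likelihood tests with Benjamini-Hochberg adjustment over 14571 genes. The common coefficient of variation was 0.109. Exons came from GENCODE release 44 (18063 of 18118 identifiers matched). The fit was tested on simulated counts, where the share of false calls lay above the nominal level in every comparison. It was 7.72% for siRNA 1, 7.81% for siRNA 2, 8.53% for their average and 10.7% between the siRNAs. Alternatives were no filter, 10 counts in every library, RLE, DESeq2 1.42.0, only the 4 libraries compared, a replicate block, and each library left out.

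The members and gene lists were chosen with earlier results of these data known. Named genes were the 10 members, the targeted genes, their relatives, branch enzymes, eIF2α kinases and partners, HSPA5 and XBP1, and per list up to 3 genes called in the same direction with each siRNA with the largest averaged log2FC. Others were added after their values were seen.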

Additional observations from a re-analysis of the deposited data

Results flagged for a closer look

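None of the 8 members tested was called between the EA1 siRNAs, but 4 genes of the pathway lists and 1 clear cell sarcoma marker were. This contrast used edgeR's quasi-likelihood test and Benjamini-Hochberg adjustment, and 2.24% of all genes tested were called in it. The genes called were 1 of 7 relatives, 1 of 21 other ATF4 targets and 1 of 24 unfolded protein response genes. The rest were 1 of 11 mitochondrial genes and 1 of 9 markers, and the other lists held none. Nothing is read from these counts. The sestrin SESN3 rose more with siRNA 1 (3.17) than with siRNA 2 (2.02), a difference of 1.15 on the log2 scale (adjusted p = 0.0044). VLDLR rose by 2.66 and 1.65, a difference of 1.01 (adjusted p = 0.0012). ATF6, the sensor of the third branch of the unfolded protein response, was at -0.56 and 0.19, a difference of -0.75 (adjusted p = 0.00489). The mitochondrial chaperone HSPD1 was at -0.72 and -0.25, a difference of -0.47 (adjusted p = 0.0417). The marker was ERBB3, a receptor of the neural crest lineage, at 1.68 and 0.38, a difference of 1.30 (adjusted p = 0.00246). With 2 libraries per group, no screen for single deviating libraries within a group was possible.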

How the results depend on the processing

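With 2 libraries per group, a group left with 1 library was assumed to vary like the others. Without single libraries, the genes called higher after knockdown (2898, 2702 and 3131 for siRNA 1, siRNA 2 and their average) ranged from 1892 to 3075, from 1767 to 2543 and from 2030 to 3146, with the lowest value in each case without control replicate 2. Between the siRNAs, 116 genes were higher and 210 lower in siRNA 1. These counts ranged from 13 (without siRNA 1 replicate 2) to 317 (without siRNA 2 replicate 2) and, for the same omissions, from 20 to 471. They were 71 and 105 with only the 4 libraries compared, and 326 were lower in DESeq2. Under the same omissions the log2FC of some uncalled members changed sign: DDIT3 with siRNA 1 (-0.12 to 0.31), SESN2 with siRNA 2 (-0.18 to 0.075) and averaged (-0.067 to 0.19), and, between the siRNAs, ATF4 (-0.16 to 0.039), ATF5 (-0.14 to 0.25), PSAT1 (-0.15 to 0.24) and CTH (-0.14 to 0.078). No other setting reversed a member. In DESeq2 the calls of ATF4 with siRNA 1 (-0.34), ATF5 with siRNA 2 (-0.59) and PHGDH with siRNA 2 (0.58) were lost, and those of ATF4 (-0.30) and ATF5 (-0.58) in the average. With only the 4 libraries compared, ATF5 (-0.57) and PHGDH (0.59) were no longer called with siRNA 2, while ATF5 was called with siRNA 1 (-0.56), as it was with RLE (-0.57). The causes were not tested.

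Same-numbered libraries deviated together with correlations of 0.130, 0.199 and 0.144, but the labels tie no number to a shared batch. With the replicate block, 323 genes were higher and 530 lower in siRNA 1 than in siRNA 2, ATF5 with siRNA 1 (-0.54) and PHGDH averaged (0.46) became called, and no other member's call changed. ASNS and CHAC1, at few counts, did not pass the filter and were not tested.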
